A study of Mus musculus with 99 samples.

Results

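The comparison described here sets the change in gene expression between 10 and 18 months of age in the spinal cord against the same change in 2 leg muscles. The series profiled polyA RNA from the whole spinal cord, the gastrocnemius and the quadriceps of wild type male C57BL/6 mice, young or mid-aged, with the mid-aged group either sedentary or exercised. Only the sedentary libraries enter, which are 59 of the 97 libraries in the count table. They comprise 10 cord libraries at 18 months and 10 at 10 months, 10 gastrocnemius libraries at 18 months and 10 at 10 months, and 9 quadriceps libraries at 18 months and 10 at 10 months. The mice of both ages were perfused with phosphate-buffered saline, and RNA was extracted with Trizol from flash-frozen tissue. Each library title carries a number that names 1 library of each tissue, and 20 such numbers exist, 10 at each age, of which 1 at 18 months lacks a quadriceps library here. The labels do not say that a number marks an animal. No number occurs at both ages, so whatever else the numbers stand for cannot be told apart from age.

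The spinal cord holds neurons, the oligodendrocytes that wrap their axons in myelin, astrocytes, and microglia, the resident macrophages of the central nervous system. In ageing and in injury, microglia are known to take up a state often called disease-associated, in which genes for lipid uptake, lysosomal degradation and phagocytosis are raised. Skeletal muscle is built mainly of multinucleate fibres, with fewer resident macrophages, and its metabolic genes follow feeding, activity and the daily clock. Since whole tissue was sequenced, fewer cells of a type and less RNA per cell cannot be told apart in any value below.

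Library totals ran from 29063006 to 49091268 counts. Levels are given as CPM, a gene's reads scaled to a fixed library size. The tissues carried their own markers: the summed level of 18 muscle fibre genes was 185 to 913.8 CPM in cord and 234900 to 379700 CPM in gastrocnemius, and the summed level of 25 neuronal genes was 7918 to 9396 CPM in cord and 141.8 to 250.2 CPM across the muscles. Earlier results named 5 libraries that stood apart. Cord 5.2 at 18 months had 1.58% of counts from the mitochondrial genome against a cord median of 4.34% at that age. Cord 6.1 at 18 months had 6341 CPM of red cell genes against a median of 353.5 CPM. The gastrocnemius and quadriceps libraries numbered 3.1 at 10 months held the lowest muscle fibre sums of their groups, 234900 and 237000 CPM, and gastrocnemius 2.2 at 10 months held the highest, 379700 CPM. Leading counts are also given without these 5. Others were as far out on a single measure: quadriceps 5.2 and 3.2 had 19.2% and 18.2% mitochondrial counts against group medians of 12.2% and 13.15%, gastrocnemius and quadriceps 6.1 had red cell sums of 1566 and 1359 CPM against 81.98 and 138.6 CPM, and cord 3.1 had the highest sum of homeostatic microglial genes, 360.5 CPM.

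For each gene the effect of age was taken as the log2 ratio of 18 over 10 months within a tissue, and the quantity tested was the cord effect minus the mean of the gastrocnemius and quadriceps effects. A positive difference means that the 18-month to 10-month ratio was higher in cord. With the number as a block, edgeR's quasi-likelihood test called 1252 of 19238 genes at an adjusted p under 0.05, which is 6.51% of the genes tested. Of these, 465 had a higher effect in cord (2.42% of genes tested) and 787 a lower one (4.09%). When each number was reduced to 1 cord-minus-muscle value and the 2 ages were compared with limma, 333 genes were called, 130 higher (0.676%) and 203 lower (1.06%), and 324 of them were among the 1252. Libraries of the same number were more alike between the muscles than between cord and muscle, a relation that the block does not model. The limma result is therefore given below for a part of the genes, and a gene without it may have passed or missed it. Lgals3, Itgax, C1qa, Cxcl10, Tlr2, Slc11a1, Ftl1, H2-D1 and Ccl3 are given without it but passed both tests. So did Pak1, Arc, Gpm6a, Scn2a, Peg10, Slc15a2, Pde7a, Fam174b, Phlda3 and Jund. With the 5 libraries left out the block test called 1699 genes, 689 higher and 1010 lower, 800 of them shared with the 1252. Counts of list members given below for that setting stand beside this rise over all genes. On 1 value per number without numbers 3.1, 2.2, 5.2 and 6.1, which also leaves out the further libraries above except quadriceps 3.2, 1157 were called, 563 of them shared. Scaling each tissue on its own moved the split of calls to 579 higher and 623 lower. Differences were mostly small: 282 of the called genes reached 0.5 on the log2 scale, 131 of them with a higher effect in cord.

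Most called genes were expressed in all 3 tissues, at a mean of at least 1 CPM in each: 381 of the 465 with a higher and 708 of the 787 with a lower effect in cord, beside 11666 of the 19238 genes tested. Among the 465, 400 had a positive effect in cord and a negative one in both muscles, and among the 787, 690 had a negative effect in cord and a positive one in both muscles. Of all genes tested 21% had the first pattern of signs and 17.4% the second, and selecting genes on the difference partly fixes it. Few of the calls were also called within a tissue: 52 in cord, 57 in gastrocnemius and 99 in quadriceps, while 1076 of the 1252 were called in none of the 3 tissues in a fit over the 6 groups. Fitted alone, cord gave 205 higher calls (1.11% of its genes tested) and 47 lower (0.256%), gastrocnemius 11 (0.0754%) and 5 (0.0343%), and quadriceps 13 (0.0903%) and 4 (0.0278%), with other genes tested and other scaling as well. Of the muscle effects described as rises or falls below, those of Amy1 in both muscles, of Pfkfb3, Dgat2, Pde7a and Fam174b in gastrocnemius, and of Nnat, Spock2 and Arc in quadriceps also passed with the muscle fitted alone, and the others did not. Genes with a called effect on one side were thus a minority.

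**Figure D1:**
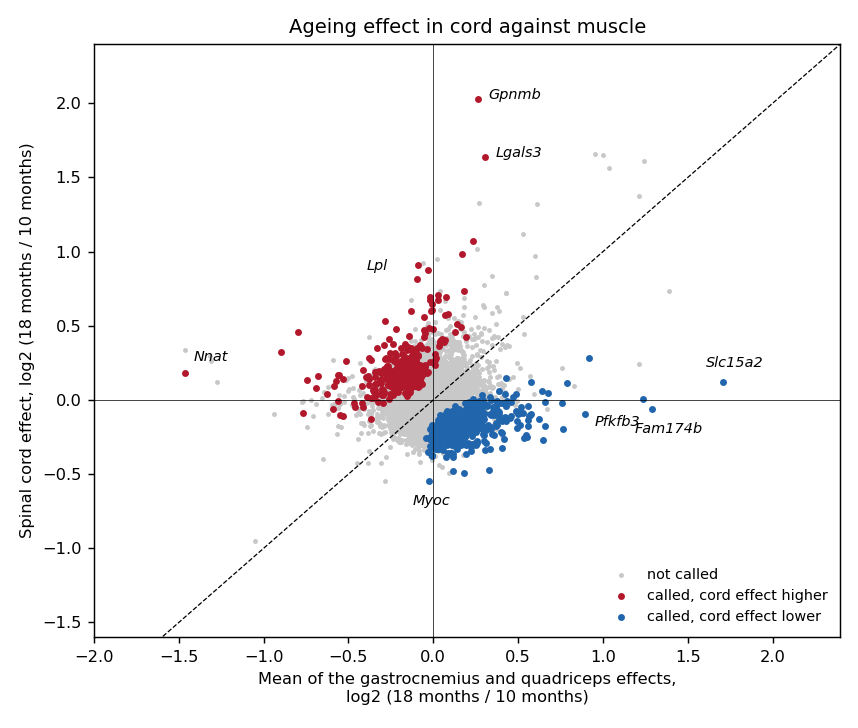
Cord effect (vertical axis) against the mean muscle effect (horizontal axis), both as log2 of 18 over 10 months, for the 11666 genes expressed in all 3 tissues. Each point is a gene, red for the 381 called higher and blue for the 708 called lower in cord, and the dashed line marks equal effects; Gpnmb and Lgals3 lie high at a small muscle effect, while Slc15a2, Fam174b and Pfkfb3 lie far right at a cord effect near 0.

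Genes of the disease-associated microglial state gave the highest share of called members of the 42 gene lists examined, followed by the circadian clock. Of 24 members tested, 12 had a higher effect in cord and 0 a lower one, against 2.42% and 4.09% of all genes, and 22 had a positive difference. Their median difference was 0.64 on the log2 scale, where the median over all genes was -0.01. The median effect was 0.50 in cord, -0.01 in gastrocnemius and 0.07 in quadriceps, and in the fit over 6 groups 12 members rose in cord, where 0.39% of all genes did, and 0 changed in either muscle. The limma test on 1 value per number called 11 members higher. Without the 5 libraries that stood apart 17 were called higher, and over the 20 fits that each left out 1 number between 11 and 18 were. The list was chosen with earlier results of these data known, so it is no independent evidence of its direction.

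Lpl, lipoprotein lipase, the enzyme that releases fatty acids from circulating triglyceride and that microglia switch on in the disease-associated state, had the lowest p of all genes tested. In cord it measured 5.06, 7.15 and 9.91 CPM (lowest, median, highest; n = 10) at 18 months and 3.74, 4.25 and 5.06 CPM (n = 10) at 10 months. In gastrocnemius the lowest, median and highest values were 664, 782 and 969 CPM at 18 months and 727, 807 and 1043 CPM at 10 months, and in quadriceps 750, 812 and 1076 CPM at 18 months (n = 9) and 783, 912 and 1175 CPM at 10 months. The cord ranges touched without crossing, whereas in both muscles the ages overlapped over most of their range. The effect of age was 0.81 ± 0.09 (SE) in cord, -0.08 ± 0.08 in gastrocnemius and -0.10 ± 0.08 in quadriceps, and the difference was 0.88 ± 0.09 (edgeR adjusted p = 3.07e-08; limma on 1 value per number, adjusted p = 0.000354). Taken number by number, the cord-minus-muscle value at 18 months lay above every 10-month value in 10 of 10 numbers, a pattern that 9 of all genes tested (0.0468%) showed, while 14 (0.0728%) showed the reverse. Lpl was far more abundant in muscle than in cord at either age, and the age effect passed in cord alone. The gene occupies chr8:68880491-68907448 on the plus strand in the GENCODE annotation of GRCm38.

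Gpnmb, a transmembrane glycoprotein of lysosomes and phagosomes in macrophages, had the largest positive difference of the genes called with a mean of at least 1 CPM in every tissue. Cord libraries held 5.38, 8.16 and 13.9 CPM (lowest, median, highest) at 18 months and 1.29, 1.91 and 2.94 CPM at 10 months. Gastrocnemius held 13.1, 16.8 and 31.6 CPM at 18 months against 7.26, 15.8 and 35.9 CPM at 10 months, and quadriceps 5.74, 7.57 and 8.95 CPM against 4.69, 5.79 and 7.14 CPM. Every cord library at 18 months exceeded every one at 10 months, and in both muscles the ages overlapped. The difference was 1.68 ± 0.24 (edgeR adjusted p = 4.34e-05; 0.000354 on 1 value per number), made of a cord effect of 2.03 ± 0.20, a gastrocnemius effect of 0.18 ± 0.18 and a quadriceps effect of 0.35 ± 0.20.

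Ctsz and Ctsd, lysosomal proteases of the list, differed less in size but as evenly across numbers. Ctsb, a further cathepsin of the list, was not called. Ctsz, cathepsin Z, a cysteine protease, measured 34.1, 40.3 and 52.2 CPM in cord at 18 months and 26.2, 30.4 and 38.6 CPM at 10 months, while its medians in gastrocnemius were 35.6 and 35.3 CPM and in quadriceps 33.7 and 35.5 CPM at 18 and 10 months. Its difference was 0.52 ± 0.07 (edgeR adjusted p = 3.43e-05; 0.00171 on 1 value per number). Ctsd, cathepsin D, the main aspartic protease of lysosomes, measured 337, 377 and 441 CPM in cord at 18 months and 263, 290 and 348 CPM at 10 months. The cord ranges of both cathepsins overlapped, yet for both the cord-minus-muscle values of all 10 numbers at 18 months lay above all those at 10 months. For Ctsd the difference was 0.61 ± 0.09 (edgeR adjusted p = 6.19e-05; 0.00688 on 1 value per number), with effects of 0.37 ± 0.12 in cord, -0.26 ± 0.12 in gastrocnemius and -0.32 ± 0.12 in quadriceps. None of these 3 effects passed in the fit over 6 groups (adjusted p = 0.138 in cord), and the muscle values include the libraries numbered 3.1, which at 1838 CPM in gastrocnemius and 2155 CPM in quadriceps were the highest of all. Ctsd stayed called when 3.1 or any other number was left out. Hexa, a subunit of the lysosomal beta-hexosaminidases, is not on the microglial list. It had the same separation by number at a difference of 0.39 ± 0.07 (edgeR adjusted p = 0.00105; 0.0241 on 1 value per number). Among the 28 genes of a list of lysosomal enzymes and membrane proteins, Hexa was the only one called. That share is near the 2.42% of all genes called higher, and the list's median difference was 0.09. With the 5 libraries left out 8 were called higher and 1 lower, and between 1 and 8 were called higher when a single number was left out.

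Upstream sequence is shown for the 3 genes of this group with the lowest p that had an entry in the RefSeq promoter table (GRCm38.p6). For each of them every cord-minus-muscle value at the older age lay above all those at the younger age. Whether their values varied together across numbers within an age was not tested. The 250 bases before the RefSeq start were searched on both strands for CACGTG, the core of the E-box that lysosomal regulators of the MiT/TFE family bind, and for GAGGAAGT, a form of the site of the macrophage factor PU.1. Capitals mark CACGTG, and for Ctsd only the 39 bases upstream of every annotated exon are printed. The windows are chr6:49036268-49036517 (plus strand) for Gpnmb, chr2:174439040-174439289 (minus strand) for Ctsz and chr7:142388039-142388077 (minus strand) for Ctsd.
Gpnmb: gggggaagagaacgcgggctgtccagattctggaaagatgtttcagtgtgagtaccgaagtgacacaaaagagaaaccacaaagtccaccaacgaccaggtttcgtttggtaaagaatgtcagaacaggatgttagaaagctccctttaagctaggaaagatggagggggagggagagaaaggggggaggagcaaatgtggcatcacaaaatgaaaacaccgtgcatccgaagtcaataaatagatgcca
Ctsz: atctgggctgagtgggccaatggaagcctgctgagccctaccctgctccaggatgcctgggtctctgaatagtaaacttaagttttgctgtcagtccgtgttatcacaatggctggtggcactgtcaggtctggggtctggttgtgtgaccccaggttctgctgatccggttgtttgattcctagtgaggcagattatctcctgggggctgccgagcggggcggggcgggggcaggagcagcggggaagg
Ctsd: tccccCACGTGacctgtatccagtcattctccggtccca

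The 250 bases of Ctsd held 2 copies of CACGTG, and those of Gpnmb and Ctsz held 0. CACGTG lay in 6.05% of all 27025 promoters that RefSeq lists and GAGGAAGT in 2.44%. Of the 12 list members called higher in cord, 9 had an entry, of which 1 held CACGTG and 0 held GAGGAAGT. These matches describe the letters of the windows only.

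Other macrophage genes of the list lay between these. Cd68, a lysosomal membrane glycoprotein used as a marker of phagocytes, measured 7.86, 9.86 and 11.1 CPM in cord at 18 months and 4.19, 4.84 and 9.1 CPM at 10 months. Its difference was 0.94 ± 0.16 (edgeR adjusted p = 0.000464; 0.00306 on 1 value per number), and 1 cord library at 10 months, number 3.1, reached the range of the 18-month libraries. Lgals3, the galactose-binding lectin galectin-3, measured 4.54, 5.98 and 8.71 CPM in cord at 18 months and 1.2, 2.12 and 2.65 CPM at 10 months, without overlap. Its difference was 1.34 ± 0.23 (edgeR adjusted p = 0.000464), with effects of 1.64 in cord, 0.17 in gastrocnemius and 0.44 in quadriceps. Itgax, the integrin CD11c, had a difference of 1.51 ± 0.28 (edgeR adjusted p = 0.00104), and its cord ranges of 1.78 to 4.44 CPM at 18 months and 0.42 to 1.56 CPM at 10 months did not overlap. Tyrobp, the signalling adaptor of Trem2, Lyz2, lysozyme, and Lilrb4a, an inhibitory receptor, were called at 0.66, 0.82 and 0.88. Cd63, a tetraspanin, and Fth1, the ferritin heavy chain, were called at 0.40 and 0.36 but not on 1 value per number (limma adjusted p = 0.0597 and 0.0615).

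Not every gene that rose in cord was called for a difference from muscle. Cst7, cystatin F, an inhibitor of lysosomal proteases, had 0.96 to 1.92 CPM in cord at 18 months against 0.06 to 0.56 CPM at 10 months, a cord effect of 2.22 ± 0.20 (edgeR adjusted p = 1.96e-11). In the muscles it averaged 1.67 counts per library. Its difference of 1.31 ± 0.53 did not pass (edgeR adjusted p = 0.121), although it did on 1 value per number (limma adjusted p = 0.0102). Trem2, the lipid-sensing receptor at the head of this microglial programme, had effects of 0.77 in cord, 0.09 in gastrocnemius and 0.08 in quadriceps and a difference of 0.67 ± 0.26 (edgeR adjusted p = 0.0945). Clec7a, the beta-glucan receptor dectin-1, rose by 1.27 in cord (edgeR adjusted p = 0.000226), with a difference of 0.77 that missed the threshold at 0.0664.

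Genes that mark resting microglia gave no calls with all libraries in. Of 14 members tested, among them P2ry12, Tmem119 and Cx3cr1, 0 were called in either direction (median difference 0.11; 10 of 14 positive), and the differences of these 3 genes were -0.20, 0.23 and 0.07. Their summed level in cord was 247.8 to 309.9 CPM (median 284.8) at 18 months and 249.2 to 360.5 CPM (median 257.1) at 10 months, with the ages overlapping. Without the 5 libraries that stood apart, 4 of the 14 were called higher in cord, 13 were positive and the median difference was 0.36. That setting removes both muscle libraries of number 3.1, so cord 3.1, the library at 360.5 CPM, adds nothing to the block test there. Over the 20 fits that each left out a number, between 0 and 4 were called higher. The count of 0 thus depends on which libraries enter, and it cannot be tied to those 5 alone. The 2 microglial lists were not tested against each other. Whether a change in the number of microglia took part in the values above was not tested.

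**Figure D2:**
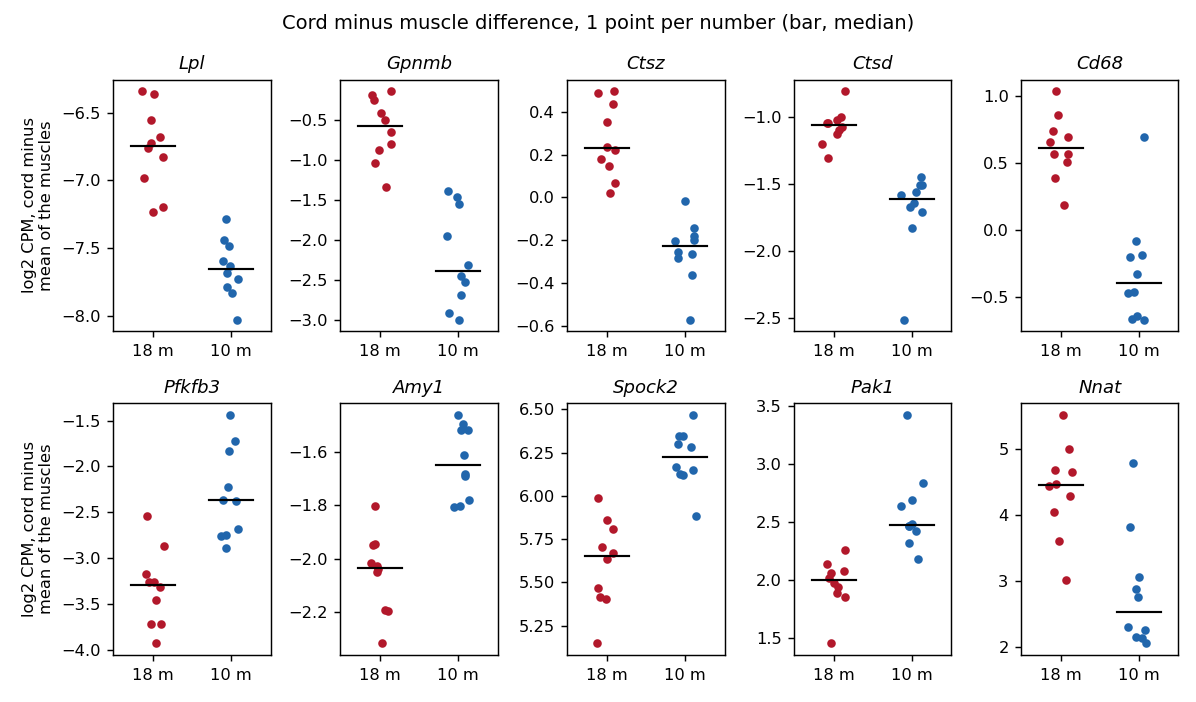
Cord minus muscle difference in log2 CPM (vertical axis) for 10 genes, 1 point per number, at 18 months (red, left) and 10 months (blue, right), with the median as a bar. For Lpl, Gpnmb, Ctsz and Ctsd all 10 values at 18 months lie above all those at 10 months, while for Pfkfb3, Amy1, Spock2 and Pak1 most lie below.

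Genes of antigen presentation, complement and innate sensing gave fewer calls. Beside this and the list counts below, 2.42% of all genes tested were called higher and 4.09% lower. Of 19 genes of MHC class I presentation, 4 were called higher in cord and 0 lower (median difference 0.20). H2-D1 and H2-K1, the classical class I heavy chains, rose in cord by 0.40 and 0.46 (edgeR adjusted p = 0.000746 each), with effects between 0.03 and 0.18 in the muscles and a difference of 0.34 for both. The 10 class II genes gave 0 calls, with a median difference of 0.12, while without the 5 libraries 3 were called higher and the median was 0.39. Class I heavy chain genes are near-identical in places, as are C4b and its copy C4a, so the counting may have split their reads. Of 19 complement genes, 3 were called higher and 1 lower, and without the 5 libraries 10 and 0. C1qa, a chain of the initiator C1q, measured 34.5, 47.2 and 61.7 CPM in cord at 18 months and 22.3, 26.9 and 51 CPM at 10 months, and its difference was 0.72 ± 0.16 (edgeR adjusted p = 0.00503). C4b, complement component 4, had a difference of 0.58 ± 0.16 (edgeR adjusted p = 0.0198), while Cd55, which protects host cells from complement, had one of -0.36.

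Among 18 chemokines of a list that does not hold Cxcl10, Ccl3 and Cxcl13 were called higher in cord. Cxcl13 was lost in 10 of 20 fits that left out a number. Ccl3, a chemoattractant of monocytes, had 0.43 to 0.69 CPM in cord at 18 months and 0.09 to 0.21 CPM at 10 months, without overlap, and rose in cord by 1.89 ± 0.24 (edgeR adjusted p = 2.37e-07). It averaged 1.38 counts per muscle library, so the size of its difference of 2.01 ± 0.55 rests on very few muscle reads. Cxcl10, the interferon-induced chemokine, had a difference of 1.47 ± 0.25 (edgeR adjusted p = 0.000478) and was the only one called of 33 interferon response genes. That share is near the 2.42% of all genes called higher. Of the interferon genes 6 rose in cord and 0 in either muscle, and the list's median effect was 0.41 in cord, 0.26 in gastrocnemius and 0.20 in quadriceps, with a median difference of 0.10. With the 5 libraries left out 6 of the 33 were called higher, and in DESeq2 4 were. Tlr2, a receptor for bacterial lipoproteins, was the only one called of 12 Toll-like receptors, at 0.71 ± 0.15 (edgeR adjusted p = 0.00295).

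In iron handling 3 of 16 genes were called, all higher in cord, beside 2.42% of all genes tested: Slc11a1, Ftl1 and, as above, Fth1. Slc11a1, a metal transporter of the phagosome membrane, had a difference of 0.71 ± 0.14 (edgeR adjusted p = 0.00196) and rose in cord by 0.60. Ftl1, the ferritin light chain, had a difference of 0.59 ± 0.12 (edgeR adjusted p = 0.00295), from effects of 0.41 in cord, -0.30 in gastrocnemius and -0.23 in quadriceps. Red cell genes reached 6341 CPM in 1 cord library at 18 months against at most 622.8 CPM at 10 months. Slc11a1 and Ftl1 stayed called without that library's number, 6.1, and Fth1 did not. Leaving out 6.1, with its muscle libraries, also cut the calls over all genes from 1252 to 507. The part of red cells in the values was not tested.

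Among astrocyte genes, Gfap, the intermediate filament of reactive astrocytes, measured 861, 903 and 1081 CPM in cord at 18 months and 638, 718 and 819 CPM at 10 months, without overlap, and rose by 0.43 when cord was fitted alone (edgeR adjusted p = 5.83e-05). Its difference of 0.81 ± 0.25 (edgeR adjusted p = 0.0424) also takes in muscle levels below 2 CPM and was lost in 11 of 20 fits that left out a number, with no block and in DESeq2. Of 22 genes of reactive astrocytes 4 were called higher in cord, Hspb1, S100a10, Gfap and Vim, of which only Gfap was also called on 1 value per number. Without the 5 libraries 10 of the 22 were called higher, at a median difference of 0.36 against 0.23 with all libraries. Over all genes 689 were called higher in that setting, against 465 with all libraries. Of 13 general astrocyte markers 2 were called lower, Slc4a4 and Gja1, at -0.44 and -0.34.

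A second set of genes had effects of larger size in muscle than in cord. Nnat, neuronatin, an imprinted membrane proteolipid encoded at chr2:157560078-157562522 (plus strand), measured 51.3, 62.6 and 72.4 CPM in cord at 18 months and 46.1, 55.9 and 65 CPM at 10 months. In gastrocnemius it measured 1.02, 2.4 and 6.51 CPM at 18 months and 1.68, 7.49 and 15.3 CPM at 10 months, and in quadriceps 1.38, 3.36 and 5.55 CPM at 18 months and 3.11, 9.82 and 15.3 CPM at 10 months. The ages overlapped in all 3 tissues, and Nnat fell in gastrocnemius by 1.49 ± 0.27 and in quadriceps by 1.44 ± 0.28 (edgeR adjusted p = 0.00119 and 0.00273), with 0.18 ± 0.23 in cord. The difference was 1.56 ± 0.28 (edgeR adjusted p = 0.000743; 0.0185 on 1 value per number). Dgat2, which makes triglyceride, fell by 0.51 and 0.33 in gastrocnemius and quadriceps at -0.02 in cord, for a difference of 0.38 ± 0.10 (edgeR adjusted p = 0.0162). Osgin1, an oxidative stress response gene, had a difference of 1.02 ± 0.18 (edgeR adjusted p = 0.000824), with effects of 0.38 in cord, -0.64 in gastrocnemius and -0.82 in quadriceps. Phlda3, a p53 target that restrains Akt signalling, had a difference of 0.64 ± 0.13 (edgeR adjusted p = 0.00318) and fell in quadriceps by 0.61.

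Pfkfb3, at chr2:11471433-11554077 on the minus strand, moved the other way; its product makes the sugar bisphosphate that activates glycolysis. Gastrocnemius held 472, 738 and 1123 CPM at 18 months and 194, 399 and 548 CPM at 10 months, and quadriceps 320, 573 and 920 CPM at 18 months and 141, 322 and 468 CPM at 10 months. Cord held 50.5, 65.4 and 75.7 CPM at 18 months and 61.6, 68.3 and 73.4 CPM at 10 months. The muscle ages overlapped in part and the cord ages almost wholly. Pfkfb3 rose in gastrocnemius by 0.84 ± 0.16 and in quadriceps by 0.95 ± 0.16, with -0.10 ± 0.16 in cord, and the difference was -1.01 ± 0.15 (edgeR adjusted p = 0.000137; 0.0102 on 1 value per number). Among the other 26 genes of a glycolysis and glycogen list, Hk2, a hexokinase, was the only one called, at 0.35.

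Amy1, the salivary type of amylase, had the lowest p of the genes with a lower effect in cord and lies at chr3:113555710-113606699 on the minus strand, in a family of near-identical amylase genes among which reads may be split. Gastrocnemius libraries ranged over 69.8 to 117 CPM at 18 months and 53.8 to 66.6 CPM at 10 months, and quadriceps libraries over 103 to 131 CPM at 18 months and 69.2 to 93.3 CPM at 10 months, without overlap in either muscle. Cord libraries ranged over 20.3 to 24.8 CPM at 18 months and 20.4 to 24.6 CPM at 10 months, nearly the same range. The difference was -0.44 ± 0.06 (edgeR adjusted p = 1.62e-05; 0.00372 on 1 value per number). Pde7a, a cAMP phosphodiesterase, rose in gastrocnemius by 0.40 and in quadriceps by 0.34, for a difference of -0.54 ± 0.09 (edgeR adjusted p = 0.000311). Fam174b rose in gastrocnemius by 1.77 ± 0.21 and had 0.81 ± 0.26 in quadriceps, which did not pass, for a difference of -1.33 ± 0.24 (edgeR adjusted p = 0.000791). Slc15a2, a peptide transporter, rose in both muscles by 1.66 ± 0.35 and 1.75 ± 0.37, with 0.12 ± 0.30 in cord, for a difference of -1.74 ± 0.32 (edgeR adjusted p = 0.000988).

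**Figure D3:**
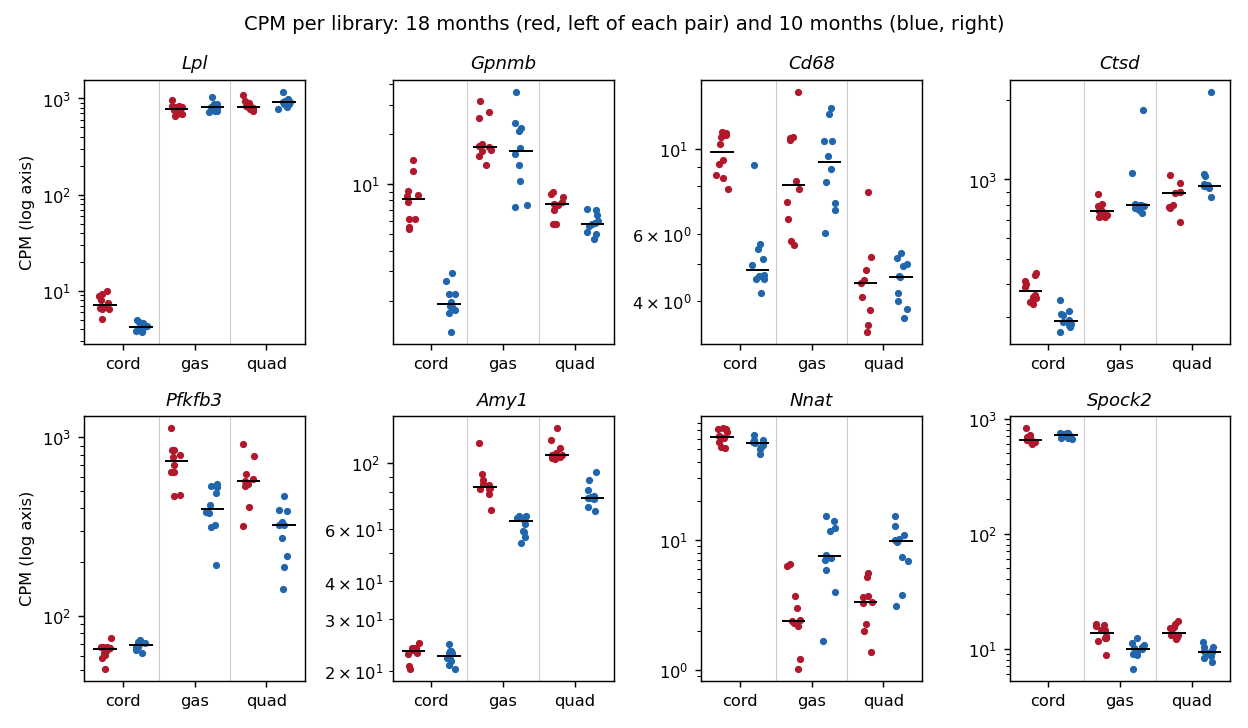
CPM (log axis) of 8 genes in every library of spinal cord, gastrocnemius (gas) and quadriceps (quad), at 18 months (red, left of each pair) and 10 months (blue, right), with the group median as a bar. For Lpl, Gpnmb, Cd68 and Ctsd the medians of the ages part in cord, and for Pfkfb3, Amy1, Nnat and Spock2 they part in both muscles.

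Some genes with a lower effect in cord, among them Spock2, Arc, Gpm6a and Scn2a, are best known from neurons, and are given here with Pak1 and Peg10. Spock2, a proteoglycan of the brain matrix, measured 8.81, 13.6 and 16.4 CPM in gastrocnemius at 18 months against 6.66, 10 and 12.4 CPM at 10 months, and 12.1, 13.7 and 17.5 CPM in quadriceps at 18 months against 7.6, 9.36 and 11.5 CPM at 10 months. Only the quadriceps ages were apart, and the cord medians were 654 CPM at 18 months and 721 CPM at 10 months. Spock2 rose by 0.46 and 0.61 in gastrocnemius and quadriceps, and the difference was -0.61 ± 0.09 (edgeR adjusted p = 3.5e-05; 0.00267 on 1 value per number). Pak1, a kinase that remodels actin, rose by 0.46 and 0.57 in the same muscles, and its difference was -0.63 ± 0.10 (edgeR adjusted p = 0.000259). Arc, an immediate early gene of synaptic plasticity, rose by 1.22 and 0.98 there from levels under 3 CPM, for a difference of -1.11 ± 0.19 (edgeR adjusted p = 0.000464). Gpm6a, a neuronal membrane glycoprotein, and Scn2a, a voltage-gated sodium channel, had differences of -0.63 ± 0.10 and -0.82 ± 0.14, with no effect that passed within any tissue. Peg10, an imprinted gene derived from a retrotransposon, had a difference of -0.73 ± 0.13 (edgeR adjusted p = 0.000791) and rose in gastrocnemius by 0.56.

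Of 25 neuronal and synaptic genes 0 were called higher and 2 lower, Scn2a among them, beside 2.42% and 4.09% of all genes tested. The list's median difference was 0.17. The summed level of the list in cord was 7918 to 9082 CPM at 18 months and 7975 to 9396 CPM at 10 months, and in gastrocnemius 159.8 to 193.1 CPM at 18 months and 141.8 to 212.6 CPM at 10 months. Both pairs overlapped. Of 10 motor neuron genes 1 was called, Ret, the receptor of a neurotrophic factor, at 0.42, a call lost on 1 value per number and in 10 of 20 fits that left out a number. The lists of muscle fibre genes and of neuromuscular junction and denervation genes gave 0 calls among 18 and 17 members.

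Genes that fell in cord were few. Gpr17, a receptor of immature oligodendrocytes, measured 10.5, 14.6 and 20.3 CPM in cord at 18 months and 14.9, 21.1 and 26.6 CPM at 10 months, and fell there by 0.49 ± 0.12 (edgeR adjusted p = 0.0316). Its difference was -0.71 ± 0.16 (edgeR adjusted p = 0.00601; 0.0365 on 1 value per number), and it was the only one called of 13 genes of oligodendrocyte precursors. Myoc, myocilin, an extracellular protein also made by meningeal cells, measured 14, 17.9 and 21.6 CPM in cord at 18 months and 21.5, 26.4 and 29.6 CPM at 10 months. The ages overlapped at their edges, and Myoc fell in cord by 0.55 ± 0.13, with an effect near 0 in both muscles, for a difference of -0.58 ± 0.12 (edgeR adjusted p = 0.00451). It was the only one called of 12 meningeal and dorsal root genes, whose median difference was -0.10. Of 17 myelin genes 1 was called, Aspa, at -0.31.

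In lipid metabolism, the list counts stand beside 2.42% of all genes called higher and 4.09% called lower. Of 23 genes of fatty acid oxidation 5 were called higher in cord and 0 lower (median difference 0.14). Apart from Lpl these were Cpt2, Hadh, Cd36 and Acadvl, at 0.31, 0.21, 0.45 and 0.20, and of the 5 only Lpl and Cpt2 were also called on 1 value per number. Cd36, a fatty acid translocase that macrophages carry too, was the only one beside Lpl to rise in cord, by 0.58, which did not pass with cord fitted alone (edgeR adjusted p = 0.112). Of 23 genes of cholesterol synthesis 4 were called lower in cord and 0 higher, Idi1, Sc5d, Hsd17b7 and Nsdhl, at -0.55, -0.22, -0.43 and -0.28. Idi1 and Hsd17b7 were also called on 1 value per number, none of the 4 passed within a tissue, and the list's median difference was -0.03. Elovl6, a fatty acid elongase, rose in quadriceps by 1.496 ± 0.26 (edgeR adjusted p = 0.000666) with -0.18 ± 0.30 in gastrocnemius, a contrast that was not tested. Its difference of -0.78 was lost in 13 of 20 fits that left out a number.

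Of 18 genes of the circadian clock 6 were called lower and 2 higher in cord, beside 4.09% and 2.42% of all genes tested. The median difference was -0.19, and 15 of 18 differences were negative. Dbp, an output gene of the clock, rose in gastrocnemius by 0.88 ± 0.19 and in quadriceps by 0.96 ± 0.20, with 0.28 ± 0.19 in cord, for a difference of -0.70 ± 0.16 (edgeR adjusted p = 0.00683). Nfil3, a repressor that opposes Dbp, fell in both muscles, by 0.51 and 0.55, for a difference of 0.43 ± 0.10 (edgeR adjusted p = 0.00633). Cry1, a repressor of the core loop, fell in both muscles by 0.33 and 0.40, for a difference of 0.24. Nr1d2, Clock, Bhlhe40, Nr1d1 and Ciart were called lower at -0.43, -0.36, -0.35, -0.37 and -0.69. With 1 value per number 1 gene of the list was called in each direction, and with no block 0 were. The hour of dissection is not given in the sources used here, so its part in these values was not tested.

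Ribosomal protein genes leaned one way with hardly a call: 39 of 40 differences were positive with a median of 0.22, and 1 was called, Rps27. Its call was kept in 5 of the 20 fits that each left out a number. Nuclear genes of oxidative phosphorylation had 42 of 50 positive with a median of 0.12 and 1 called, Cox6a1. The 13 mitochondrially encoded mRNAs ran the other way, with 0 positive, a median of -0.24 and 0 called. Without the 5 libraries that stood apart these medians shrank to 0.09, 0.07 and -0.08. The share of mitochondrial counts in cord was 1.58 to 4.63% at 18 months and 4.18 to 4.87% at 10 months, and its part in these values was not tested.

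**Figure D4:**
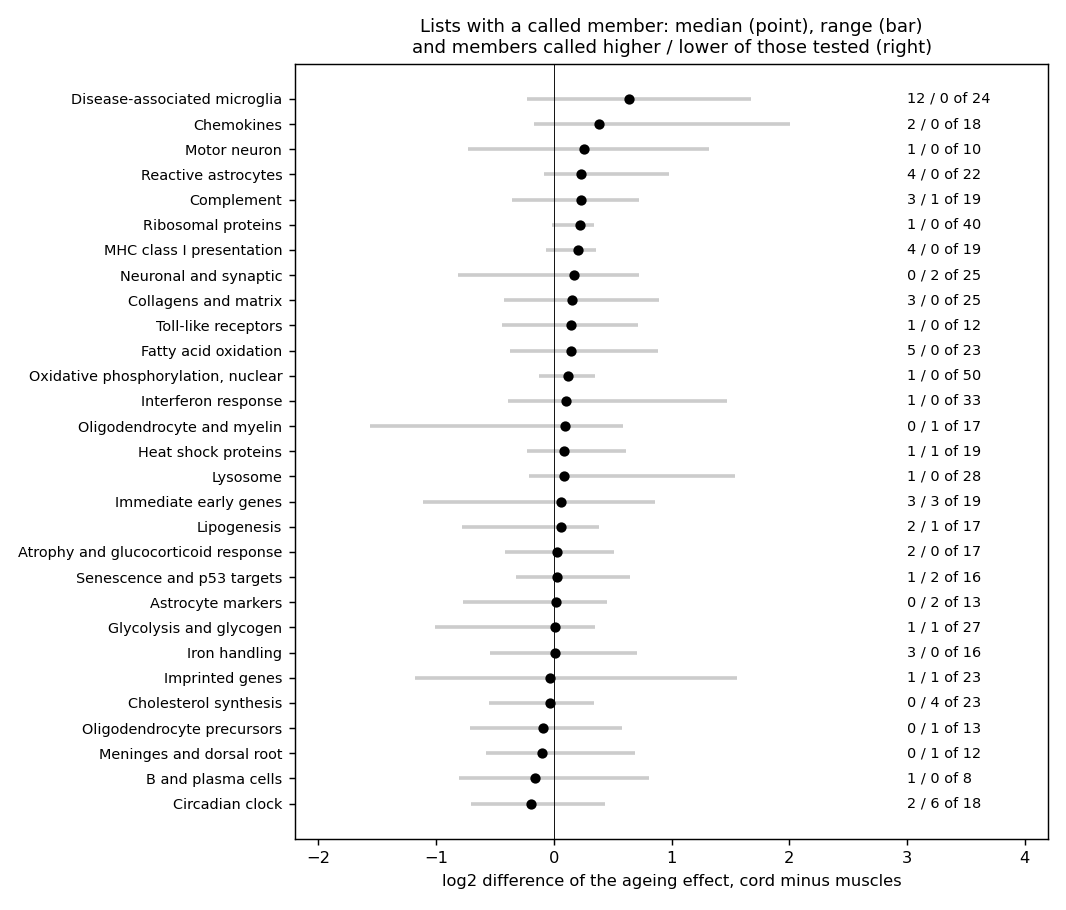
Log2 difference of the ageing effect, cord minus muscles (horizontal axis), for the 29 of 42 gene lists with at least 1 called member: points are medians, bars run from the lowest to the highest member, and the figures at the right count members called higher and lower of those tested. The list of disease-associated microglia has the highest median, 0.64, and the list of the circadian clock the lowest, -0.19.

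Some of the largest fitted differences belonged to genes almost absent from one side, where a handful of reads sets the muscle effect. Rnf182, Dscaml1, Olfm3 and Stxbp5l were called at 2.04, 1.73, -1.82 and -1.34, yet Rnf182, Dscaml1 and Olfm3 averaged 0.87, 0.95 and 0.74 counts per muscle library, and 19, 18 and 20 of the 39 muscle libraries held none of their reads. The size of such a difference depends on the prior count, and no fold is given for muscle. Conversely Myod1, the master regulator of the muscle lineage, was called at 1.25 from an average of 6.45 counts per cord library.

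Set against one muscle at a time, cord gave fewer calls. Cord against gastrocnemius called 380 genes (1.98% of those tested), 126 higher (0.655%) and 254 lower (1.32%), and cord against quadriceps called 281 (1.46%), 113 higher (0.587%) and 168 lower (0.873%). Both share the cord libraries. Lpl, Gpnmb, Ctsz and Ctsd were called in both, with differences of 0.88, 1.76, 0.53 and 0.57 from gastrocnemius and of 0.88, 1.60, 0.51 and 0.65 from quadriceps. Pfkfb3, Amy1, Spock2 and Nnat were also called in both, with differences of -0.95, -0.43, -0.54 and 1.61 from gastrocnemius and of -1.06, -0.46, -0.68 and 1.503 from quadriceps.

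Reads over exons shared with another gene cannot be assigned with certainty, on the same strand or, since TruSeq v2 libraries do not keep strand, on the opposite one. Among genes described above, exons overlapped another annotated gene by 1128 bases for Amy1 (with Rnpc3) and 808 for Ctsd on the same strand, and on the opposite strand by 877 for Jund, 539 for Dbp (with Sphk2), 527 for Fam174b, 355 for Ftl1, 323 for Idi1 and 255 for Hexa (with Tmem202). Jund, a subunit of AP-1, was called at 0.49 ± 0.09 (edgeR adjusted p = 0.000818), the lowest p of 19 immediate early genes with a higher effect in cord, of which 3 were called in each direction.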

How the data were processed

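The authors deposited 1 table of whole-number read counts per gene for all libraries, with a gene length column. The submitters' processing notes name STAR 2.5.2b and the build GRCm38.p5, while the sources used here give neither the counting tool nor its strand setting. Groups and numbers came from the sample labels. Totals of 29063006 to 49091268 counts per library set the counting error. A further quadriceps library labelled for 18 months was not analysed here, and no library was a copy of another.

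Genes passing filterByExpr (minimum count 10, total 15) numbered 19238 of 35870. TMM-scaled counts were fitted in edgeR 4.0.16 (R 4.3.3) by quasi-likelihood with 20 numbers as a block and tissue-by-age terms, leaving 35 residual degrees of freedom; the contrast was the cord effect of age minus the mean muscle effect. Log2 CPM used a prior count of 2. One cord-minus-muscle value per number was tested with limma 3.58.1, using quadriceps or gastrocnemius alone where the other was missing. Within-tissue effects came from a fit of the 6 groups without block. P-values are 2-sided and Benjamini-Hochberg adjusted over all genes tested. Scripts were tested on simulated data with known changes. The labels do not say that the samples are separate animals, so p-values may measure technical spread.

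Of 800 list symbols, 16 had no match in the table. The members and the gene lists were chosen with earlier results of these data known. Genes singled out were, among called genes, the 10 largest differences per direction at a mean log2 CPM of at least 1, the 8 lowest p per direction at a mean CPM of at least 1 in each tissue, the 5 lowest p per direction of those with opposite signs in cord and both muscles, up to 3 per list, and a fixed set of 16; predicted genes were left out. Other list members were named to complete a count. Same-numbered libraries deviated together only weakly: the median correlation of deviations was 0.046 between cord and gastrocnemius, 0.0641 between cord and quadriceps and 0.121 between the muscles. It exceeded 0.1 in 4 of 20, 5 of 19 and 10 of 19 pairs, and was positive in all 19 muscle pairs (0.0403 to 0.792). The numbers were not taken to pair the samples, which needed every pair above 0.1; the block is kept because the comparison is defined with it. Alternatives included no block, DESeq2 1.42.0, quality weights, other scaling and filters, and leaving out each number. One gene's result is not reported here.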

Additional observations from a re-analysis of the deposited data

Results flagged for a closer look

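The ageing effect itself was tested for a difference between tissues, and 1252 genes passed for cord against both muscles, 380 for cord against gastrocnemius and 281 for cord against quadriceps. The genes singled out by size or p, with the edgeR difference on the log2 scale, were these. Those with a higher effect of age in cord, whatever their level there, were Rnf182 at 2.04, Dscaml1 at 1.73, Gpnmb at 1.68, Nnat at 1.56, Lgals3 at 1.34, Hp at 1.34, Myod1 at 1.25, Tmem121 at 1.18, Nppc at 1.16, Osgin1 at 1.02, Cd68 at 0.94, Lpl at 0.88, Capg at 0.78, Ifi30 at 0.65, Ctsd at 0.61 and Ctsz at 0.52. Those with a lower effect of age in cord were Olfm3 at -1.82, Slc15a2 at -1.74, Stxbp5l at -1.34, Fam174b at -1.33, Arc at -1.11, Ryr2 at -1.06, Pfkfb3 at -1.01, Erc2 at -0.9997, Sowaha at -0.95, Kcnd3 at -0.94, Pak1 at -0.63, Gpm6a at -0.63, Spock2 at -0.61, Ccdc85a at -0.57, Pde7a at -0.54, Amy1 at -0.44 and Strbp at -0.30. Rnf182, Dscaml1, Olfm3, Stxbp5l, Tmem121, Nppc, Ryr2, Sowaha and Kcnd3 had a median under 1 CPM in both muscles, so their sizes rest on few reads.

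In the cord-minus-muscle log2 values of the same genes, a single number stood apart from the other 9 of its age in 11 of 66 groups examined, where chance marks about 1 in 20. At 18 months these were number 9.2 for Osgin1 (-4.65) and Slc15a2 (3.08), number 5.2 for Capg (-1.08) and Gpm6a (5.15), number 7.4 for Sowaha (7.07) and number 8.2 for Pak1 (1.45). At 10 months they were number 3.1 for Ctsd (-2.51), Cd68 (0.69), Pak1 (3.43) and Pde7a (-3.54) and number 3.2 for Erc2 (7.08). Numbers 3.1 and 5.2 include libraries described above as standing apart.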

How the results depend on the processing

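For cord against both muscles (1252 genes called) the count was 333 on 1 value per number, 307 with no replicate block, 816 with no filter on low counts, 2691 with quality weights, 380 against gastrocnemius alone and 281 against quadriceps alone. It ranged from 507 to 2393 when 1 number was left out, with 507 without 6.1, 796 without 3.3, 798 without 6.4 and 2393 without 3.1. For cord against gastrocnemius (380) the count was 58 on 1 value per number, 628 on the same without numbers 3.1, 2.2, 5.2 and 6.1, an alternative chosen after seeing the data, 787 in DESeq2, 634 at a mean CPM of at least 1 in each tissue, 224 with no filter, 45 with no block, 1664 with quality weights and 849 without the 5 libraries. It ranged from 176 to 1451 over the numbers left out: leaving out 6.1 gave 176, 1.2 and 2.2 each 178, 6.4 gave 209, 1.1 gave 223, 1.4 gave 226, 8.2 gave 242 and 3.1 gave 1451. For cord against quadriceps (281) the same settings gave 117, 439, 519, 424, 175, 36, 1653 and 1200. Its range was 83 to 714: leaving out 6.1 gave 83, 9.3 gave 130, 3.3 gave 142, 9.2 gave 166, 1.1 gave 172, 1.4 gave 177, 6.4 gave 181, 2.3 gave 182, 6.2 gave 185 and 3.1 gave 714. Fitting a tissue alone gave 252 calls in cord, 16 in gastrocnemius and 17 in quadriceps, against 95, 69 and 195 over 6 groups. The causes were not tested.

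Of the 88 singled-out genes that were called, 0 changed direction under any setting, 55 were also called on 1 value per number, 62 with each number left out in turn, and 37 under all settings that tested them; 26 were lost without at least 1 number. The block rests on numbers that the labels do not tie to an animal: cord libraries correlated best with the gastrocnemius library of their own number in 5 cases of 20 and with the quadriceps library in 8 of 19, and the muscles with each other in 13 of 19. Genes near 0 counts in a tissue have differences that depend on the prior count.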

Other observations

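Of 25 collagen and matrix genes, 3 were called higher and 0 lower with number as a block, Col5a3, Eln and Loxl1, at differences of 0.50, 0.50 and 0.37, and 0 passed on 1 value per number. Without the 5 libraries that stood apart 13 were called higher, at a median difference of 0.45 against 0.16 with all libraries, and with quality weights 14 were. Calls higher in cord over all genes also rose, from 465 to 689 without those libraries and to 949 with quality weights. Col5a3, a fibrillar collagen chain, measured 25.8 to 38.6 CPM in cord at 18 months and 18.5 to 31.4 CPM at 10 months, and 34.6 to 47.6 CPM in gastrocnemius at 18 months and 23.8 to 59.5 CPM at 10 months, so the ages overlapped on both sides. Of 16 genes of senescence and p53 targets, Phlda3 was called higher, and Zmat3 and Ccng1 lower, at -0.27 and -0.32. Of 19 heat shock genes, Hspb6 was called higher and Hspa5 lower, at 0.30 and -0.23, beside 2.42% and 4.09% of all genes tested. Hspb6 was called in 10 and Hspa5 in 17 of the 20 fits that each left out a number.

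Of 11 T and NK cell genes tested 0 were called for a difference. Cd8a, the co-receptor of cytotoxic T cells, rose in cord by 1.58 (edgeR adjusted p = 0.0119), with effects of 1.46 in gastrocnemius and 1.84 in quadriceps that did not pass (adjusted p = 0.434 and 0.117), and its difference was 0.08. The summed level of 16 such genes was 3.31 to 5.54 CPM in cord at 18 months and 1.93 to 4.14 CPM at 10 months, and 2.73 to 5.46 CPM in quadriceps at 18 months and 1.72 to 3.95 CPM at 10 months, both overlapping. Of 8 B and plasma cell genes 1 was called, Mzb1, a protein of antibody-secreting cells, at 0.81 ± 0.22 (edgeR adjusted p = 0.0237; 0.0887 on 1 value per number). It measured 0.21 to 0.585 CPM in cord at 18 months and 0.148 to 0.393 CPM at 10 months, and its effect within cord did not pass (adjusted p = 0.0632).

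The median effect of 11 adipocyte genes was -0.38 in gastrocnemius and 0.44 in quadriceps, a contrast that was not tested, and 0 of them were called for cord against muscle with the block and 1 on 1 value per number. Lep, leptin, the satiety hormone of fat, fell in gastrocnemius by 1.74 and in quadriceps by 1.44 (edgeR adjusted p = 0.0128 and 0.0421), neither of which passed with the muscle fitted alone (0.161 and 0.0702), while it was near 0 in cord and its difference did not pass (adjusted p = 0.103). The summed level of 12 adipocyte genes was 1654 to 3337 CPM (median 2318) in gastrocnemius at 18 months and 1163 to 2696 CPM (median 2128) at 10 months, so its median was higher at 18 months although the median effect was negative. It was 926.1 to 1946 CPM in quadriceps at 18 months and 679.1 to 1405 CPM at 10 months, and the ages overlapped in both muscles. The share of fat in the dissected muscle was not tested.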
